A study of Mus musculus with 12 samples.

Results

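The genes described here are 10 genes of the ATF4 stress response and of serine and one-carbon synthesis: Atf4, Ddit3, Atf5, Chac1, Trib3, Asns, Psat1, Phgdh, Shmt2 and Mthfd2. They were chosen by name, as genes known to belong to the program, but with earlier results of these data known. Each name was matched to the gene symbols of the expression tables, where all 10 were found among 24480 entries. RNA was sequenced from E14Tg2a cells, a feeder-free mouse embryonic stem cell (ESC) line grown on gelatin in serum medium with LIF, nonessential amino acids, glutamine and pyruvate. There were 12 libraries, 3 in each of 4 groups. CTR KD cells received a scrambled siRNA and YAP KD cells siRNAs against mouse YAP, while CTR OE cells received, by the sample labels, a plasmid encoding GFP and YAP OE cells one encoding mouse YAP under the CAG promoter. The study's text instead names an empty vector for CTR OE, and which was used could not be settled here. All groups went through lipofection, so each is a transiently transfected population rather than a clone, and no untransfected library was analysed here. The comparison asked whether an integrated stress response accompanied altered YAP, and whether its genes told the cultures of a group apart.

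In the integrated stress response, several kinases, each answering to another stress, phosphorylate the translation factor eIF2, which lowers protein synthesis in general but lets ribosomes reach the coding sequence of the ATF4 mRNA. ATF4 protein is a transcription factor that, with C/EBP partners, switches on genes for amino acid uptake and synthesis, tRNA charging and, when stress lasts, cell death. Because ATF4 is set largely at translation, its mRNA level is a poor measure of its protein, and its targets are usually read instead. YAP is the transcriptional coactivator at the end of the Hippo pathway, which binds DNA through TEAD factors.

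Libraries held 42926300 to 57240700 expected counts, of which 10.31 to 13.18% fell on entries for small RNAs. Yap1 itself, the targeted gene, stood at 125 ± 9.16 CPM (normalised read count, scaled per library with TMM factors, mean ± SD, n = 3) in CTR KD and at 56.5 ± 1.72 in YAP KD. It stood at 133 ± 1.96 in CTR OE and 259.8 ± 16.8 in YAP OE, so every library matched its label. The 6 ESC markers summed to 3614 to 3877 CPM in every library, against 1.84 to 3.04 for 5 fibroblast markers and 2.61 to 4.13 for 4 primitive endoderm markers. The 4 trophoblast markers summed to 1.26 to 2.29 CPM in the CTR KD, YAP KD and CTR OE libraries and to 3.29 to 3.91 in YAP OE, where Cdx2 (0.631 ± 0.0198 CPM against 0.149 ± 0.069 in CTR OE) and Gata3 (1.04 ± 0.162 against 0.286 ± 0.0985) were called higher. In the other 3 lists no marker was called in either experiment with edgeR, with 5 unadjusted p under 0.05 in the knockdown (3 ESC and 2 fibroblast markers) and none in the overexpression. The widest log2 fold changes were those of the fibroblast collagen Col1a1 in the knockdown (1.10, adjusted p = 0.158) and Col3a1 in the overexpression (-0.46, adjusted p = 0.518). In bulk RNA, a change in the share of cells of a type and a change in RNA per cell cannot be told apart.

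A minority of the program's transcripts passed the test, and those that did moved in the same direction as YAP, by modest amounts. Of the 10 genes, 3 fell when YAP was silenced (Ddit3, Atf5 and Asns) and 2 rose when YAP was overexpressed (Ddit3 and Atf5), at an adjusted p under 0.05 over all genes tested. In either direction, the knockdown gave calls for 5.49% of 14606 genes tested, and the overexpression for 2.13% of 14804. The point estimates of all 10 genes were below 0 in YAP KD and above 0 in YAP OE, which held for 28.8% of the 14521 genes tested in both experiments. The 10 genes were chosen with earlier results known and varied together between libraries, so they are not 10 separate observations. The 10 genes had a median log2 fold change of -0.17 with YAP silenced and of 0.16 with YAP overexpressed, beside medians of 0.0058 and -0.0025 over all genes tested. Each group's libraries stood clear of its control's for 5 of the 10 genes in the knockdown and for 5 in the overexpression, against 25.9% and 18.1% of all genes.

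**Figure D1:**
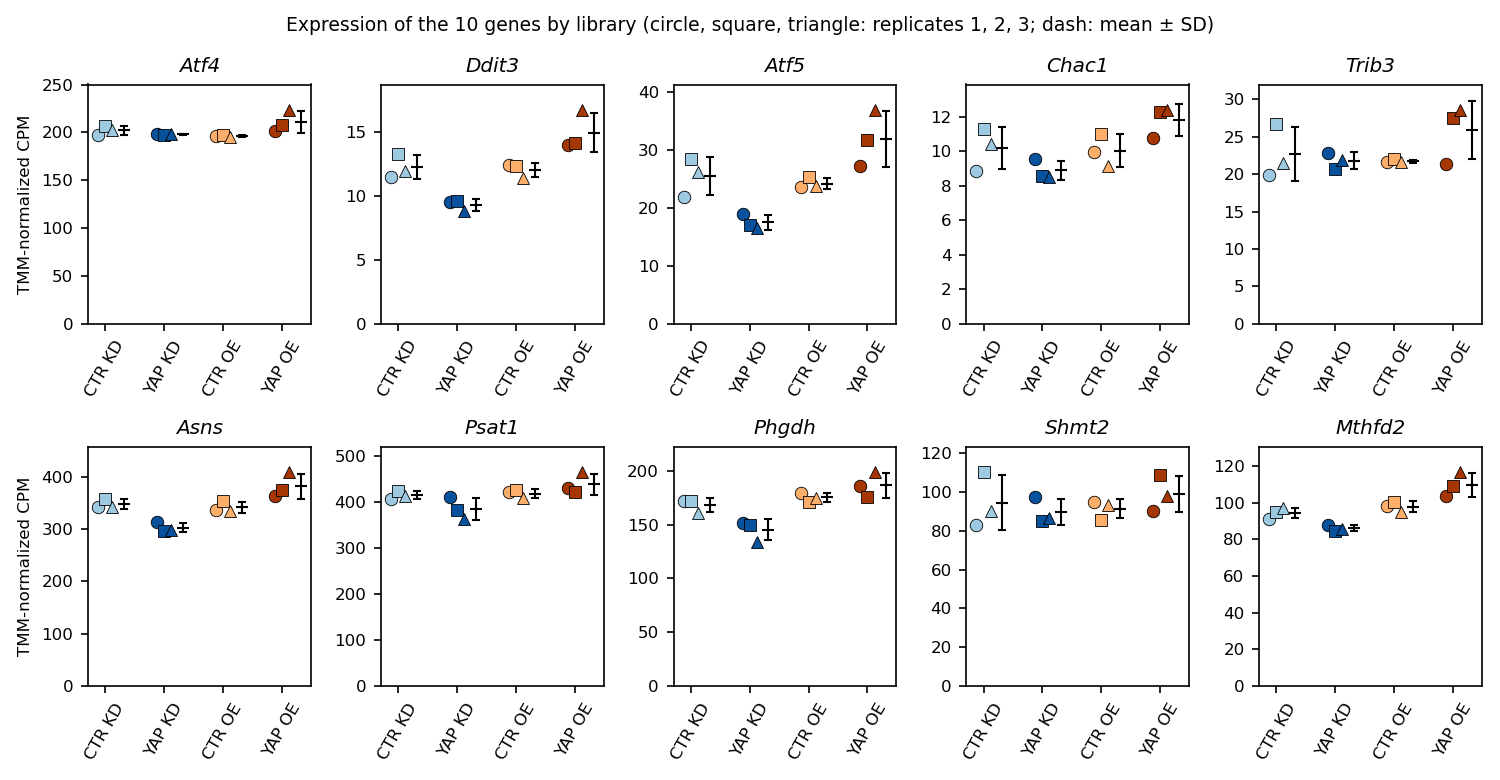
TMM-normalized CPM (vertical axis, from 0) of each of the 10 genes in the 12 libraries, with circles, squares and triangles for replicates 1, 2 and 3 and a dash with bars for the mean ± SD of each group (n = 3). Ddit3, Atf5, Asns and Mthfd2 are lower in all YAP KD libraries than in all CTR KD libraries. In all YAP OE libraries these genes are higher than in all CTR OE libraries. Atf4 lies between 196 and 223 CPM throughout, and its groups overlap in the knockdown but not in the overexpression.

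Atf4 (chr15:80255184-80257545, mm10), the transcription factor at the centre of the program, ranged from 196 to 223 CPM over the 12 libraries. Its CPM was 198, 206 and 202 in CTR KD replicates 1 to 3 and 198, 198 and 198 in YAP KD, and the groups overlapped. The fold change in the knockdown was not distinguishable from 0 (log2 fold change -0.03, SE 0.0376, adjusted p = 0.744, 95% confidence interval -0.11 to 0.06). With YAP overexpressed it was 201, 208 and 223, above the 196, 197 and 196 of CTR OE in all 3 libraries, yet the difference did not pass the adjusted threshold (log2 fold change 0.10, SE 0.0435, adjusted p = 0.312).

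Ddit3 (chr10:127290793-127296291) encodes CHOP, a C/EBP-family factor induced by ATF4 and tied to cell death under lasting stress. In CTR KD its CPM was 11.5, 13.3 and 11.98, and in YAP KD 9.54, 9.60 and 8.80. Every YAP KD library was below every control, and the fitted level was 75.7% of the control (log2 fold change -0.40, SE 0.0736, adjusted p = 0.0135). In CTR OE the values were 12.4, 12.3 and 11.4, and in YAP OE 14.02, 14.2 and 16.7. Here every YAP OE library was above every control, at 124.5% of it (log2 fold change 0.32, SE 0.0717, adjusted p = 0.0312). The knockdown call was lost without CTR KD replicate 3 (adjusted p = 0.0535) or YAP KD replicate 3 (0.0631), and with the replicate number as a block (0.0587). The overexpression call was lost without CTR OE replicate 1 (0.0729), 2 (0.0888) or 3 (0.182), or without YAP OE replicate 3 (0.107). It was also lost in 1 fit over the 12 libraries (0.0502), on log2(TPM + 1) values (0.108) and with the replicate number as a block.

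Atf5 (chr7:44812256-44816658), a relative of ATF4 that is itself controlled at translation and drives mitochondrial and amino acid stress genes, had the largest fold change of the 10 in both experiments. Its CPM was 21.9, 28.4 and 26.1 in CTR KD and 18.8, 17.01 and 16.5 in YAP KD. The groups did not overlap, and YAP KD stood at 68.4% of the control (log2 fold change -0.55, SE 0.0916, adjusted p = 0.00874). CTR OE had 23.5, 25.2 and 23.8 and YAP OE 27.2, 31.8 and 36.8. The YAP OE libraries were again all above their controls, at 132% of them (log2 fold change 0.40, SE 0.0808, adjusted p = 0.0143). The knockdown call was lost without CTR KD replicate 3 (adjusted p = 0.0544) and with the replicate number as a block (0.0648). The overexpression call was lost without CTR OE replicate 1 (0.0690) or 3 (0.0622), in the fit over 12 libraries (0.0567) and on log2(TPM + 1) values (0.142).

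Chac1 (chr2:119351242-119354326), an enzyme that breaks down glutathione, is induced downstream of ATF4 and CHOP. It was 8.87, 11.3 and 10.4 CPM in CTR KD and 9.54, 8.58 and 8.52 in YAP KD, with overlapping groups (log2 fold change -0.20, SE 0.0929, adjusted p = 0.267). It was 9.94, 11.01 and 9.11 in CTR OE and 10.8, 12.3 and 12.4 in YAP OE (log2 fold change 0.24, SE 0.0780, adjusted p = 0.166), also overlapping. Trib3 (chr2:152337425-152344060), a pseudokinase that restrains ATF4 and AKT, showed the widest spread within groups. In CTR KD it was 19.9, 26.8 and 21.5 CPM and in YAP KD 22.9, 20.7 and 21.9, which overlapped (log2 fold change -0.06, SE 0.0980, adjusted p = 0.800). Its point estimate in the knockdown turned to 0.08 without CTR KD replicate 2, the library that held the highest control value. In the overexpression it was 21.6, 21.99 and 21.6 in CTR OE and 21.4, 27.6 and 28.6 in YAP OE, so that 2 YAP OE libraries were above the controls and 1 was not (log2 fold change 0.25, SE 0.0806, adjusted p = 0.154).

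Asns (chr6:7675165-7693209), which makes asparagine from aspartate and glutamine, was the one called gene of amino acid synthesis among the 10. In CTR KD it was 342, 358 and 343 CPM and in YAP KD 313, 297 and 299. All YAP KD values were below the controls, at 87.1% of them (log2 fold change -0.20, SE 0.0408, adjusted p = 0.0222). In CTR OE it was 337, 353 and 334 and in YAP OE 363, 374 and 408, without overlap but short of the adjusted threshold (log2 fold change 0.16, SE 0.0486, adjusted p = 0.121). The knockdown call was lost without CTR KD replicate 3 (adjusted p = 0.0788), YAP KD replicate 2 (0.122) or YAP KD replicate 3 (0.0860), and with the replicate number as a block (0.130).

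ATF4 and C/EBP partners bind a composite element whose core, TGATGNAA, was searched on both strands in the 250 bases before the annotated starts that had a window (RefSeq, GRCm38.p6, all 10 genes matched, 12 windows). The only Mthfd2 window (chr6:83317605-83317854, - strand) lies inside the span given for that gene below, so its outermost start was not searched. Asns and Chac1 held a match and the other 8 genes did not hold these letters in their windows, against a match in 1056 of 27025 genes with a window (3.91%) and in 3.45% of all windows. The windows of these 2 genes are shown because they hold the core, in capitals, and those of Ddit3 and Atf5, for Atf5 the first of 2 windows, because these genes changed most, each from 5′ to 3′ on the gene's strand.
Asns, chr6:7693210-7693459, - strand: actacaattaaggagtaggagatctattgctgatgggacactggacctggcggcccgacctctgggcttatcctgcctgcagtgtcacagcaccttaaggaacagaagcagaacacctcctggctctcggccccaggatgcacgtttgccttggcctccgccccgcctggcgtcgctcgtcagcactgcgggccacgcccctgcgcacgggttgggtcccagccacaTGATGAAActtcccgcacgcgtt
Chac1, chr2:119350992-119351241, + strand: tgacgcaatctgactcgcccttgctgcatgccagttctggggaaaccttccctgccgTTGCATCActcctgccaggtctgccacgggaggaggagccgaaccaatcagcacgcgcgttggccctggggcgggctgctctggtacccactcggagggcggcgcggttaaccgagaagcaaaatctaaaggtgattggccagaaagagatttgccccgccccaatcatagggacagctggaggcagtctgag
Ddit3, chr10:127290543-127290792, + strand: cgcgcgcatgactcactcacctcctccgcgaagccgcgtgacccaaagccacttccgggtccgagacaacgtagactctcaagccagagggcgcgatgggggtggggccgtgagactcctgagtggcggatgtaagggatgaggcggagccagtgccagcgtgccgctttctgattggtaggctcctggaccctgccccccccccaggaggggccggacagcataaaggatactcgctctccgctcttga
Atf5, chr7:44816659-44816908, - strand: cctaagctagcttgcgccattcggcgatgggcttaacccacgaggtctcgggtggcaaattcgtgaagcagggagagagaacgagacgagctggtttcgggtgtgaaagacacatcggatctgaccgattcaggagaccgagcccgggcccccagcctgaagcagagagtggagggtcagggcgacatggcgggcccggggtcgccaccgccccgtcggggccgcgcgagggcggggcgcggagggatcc
In Asns the match begins 23 bases before the start (TGATGAAA, chr6:7693225-7693232), in the orientation of the core. In Chac1 it begins 193 bases before the start and reads as the reverse complement (TTGCATCA, chr2:119351049-119351056). Of the related lists described further on, 6 of 15 other stress factors and effectors with a window held a match (Atf3, Nupr1, Herpud1, Vldlr, Jdp2 and Fgf21), as did 3 of 13 tRNA synthetase genes (Aars, Gars and Tars), 2 of 16 amino acid and one-carbon enzymes (Pck2 and Pycr1) and 1 of 6 transporters (Slc7a11). No such match was found among 10 genes of eIF2 control, 12 of the endoplasmic reticulum list or 4 mitochondrial ones. A match describes the letters of a window, and no binding was measured.

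Phgdh and Psat1 carry out the first and second steps of serine synthesis from glycolytic 3-phosphoglycerate. Phgdh (chr3:98313171-98339969) was 172, 172 and 160.5 CPM in CTR KD and 152, 150.1 and 134 in YAP KD. The groups did not overlap, and the adjusted p was just above the threshold (log2 fold change -0.21, SE 0.0555, adjusted p = 0.0582). In CTR OE it was 179.7, 171 and 175 and in YAP OE 186, 175 and 199, with overlap (log2 fold change 0.09, SE 0.0464, adjusted p = 0.428). Psat1 (chr19:15905123-15925059) overlapped in both experiments. It was 407, 424 and 413 CPM in CTR KD, 411, 382 and 363 in YAP KD, 421, 426 and 408 in CTR OE and 430.3, 422 and 465 in YAP OE. Its 95% intervals reached from -0.22 to 0.01 in the knockdown (adjusted p = 0.280) and from -0.03 to 0.17 in the overexpression (adjusted p = 0.579), on the log2 scale.

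Shmt2 and Mthfd2 are the mitochondrial enzymes that take the one-carbon unit from serine and oxidize it on folate. Mthfd2 (chr6:83305704-83326011) was 91.4, 94.7 and 97.2 CPM in CTR KD and 88.03, 84.6 and 85.8 in YAP KD (log2 fold change -0.13, SE 0.0413, adjusted p = 0.105). It was 98.5, 100.4 and 94.7 in CTR OE and 103, 109 and 117 in YAP OE (log2 fold change 0.17, SE 0.0456, adjusted p = 0.0844). The groups were separate in both experiments, and neither difference passed the adjusted threshold. Shmt2 (chr10:127517123-127522444) was 83.1, 110.2 and 90.5 CPM in CTR KD and 97.6, 85.2 and 86.5 in YAP KD (log2 fold change -0.08, SE 0.0950, adjusted p = 0.725). It was 95.2, 85.7 and 93.6 in CTR OE and 90.5, 109 and 98.3 in YAP OE (log2 fold change 0.12, SE 0.0585, adjusted p = 0.428). Both comparisons overlapped, and without CTR KD replicate 2, the highest control library, the knockdown estimate turned to 0.05.

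**Figure D2:**
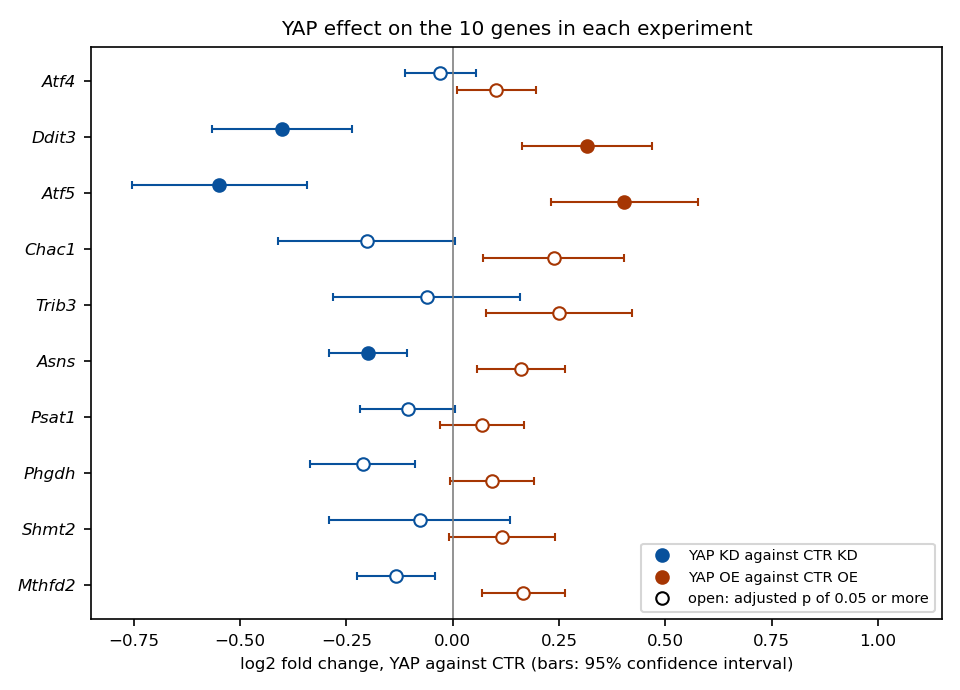
Log2 fold change (horizontal axis) of YAP KD against CTR KD (blue) and YAP OE against CTR OE (brown) for each of the 10 genes, with 95% confidence intervals from edgeR (n = 3 per group). Filled points passed an adjusted p of 0.05. Blue points lie at or left of -0.03 and brown points at or right of 0.07, and Atf5 and Ddit3 lie farthest from 0 on each side.

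Some of these genes overlap a neighbour, and strand use in the counting was not given in the sources used here. By the RefSeq annotation, Ddit3 overlaps Mbd6 by 77 bases and Mars1 (Mars in the files) by 71, Atf5 overlaps Nup62 by 571 bases and Il4i1b by 289, and Shmt2 overlaps Ndufa4l2 by 32 bases. Mbd6 (log2 fold change -0.15 and 0.05 in the knockdown and the overexpression), Mars (-0.09 and 0.02) and Nup62 (-0.06 and 0.06) were not called. Ndufa4l2, an inhibitor of mitochondrial respiration induced by hypoxia and looked up only for this overlap, was higher in both experiments (2.21, adjusted p = 0.0030, and 1.77, adjusted p = 0.0026). The counts of Ddit3 and of Atf5 were not whole numbers in 4 libraries each, by at most 0.14 and 0.26 of a read.

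Whether the YAP effect differed between the experiments was tested directly, as the overexpression effect minus the knockdown effect in 1 fit over the 12 libraries. The difference was called for 5 of the 10 genes, against 8.8% of 15049 genes tested, and all 10 differences were above 0. Estimates below 0 in the knockdown and above 0 in the overexpression already fix that sign. Since one treatment lowers and the other raises YAP, an effect that follows YAP in both also gives such a difference. It was largest for Atf5 (0.95, SE 0.144, adjusted p = 6.66e-04) and Ddit3 (0.72, SE 0.111, adjusted p = 7.30e-04), followed by Asns (0.36, SE 0.0653, adjusted p = 0.00259), Phgdh (0.31, SE 0.0767, adjusted p = 0.0206) and Mthfd2 (0.30, SE 0.0639, adjusted p = 0.00788). Chac1 was just short of it (0.44, adjusted p = 0.0503), and Atf4, Trib3, Psat1 and Shmt2 were not called, with differences of 0.13 to 0.31. The Atf5, Ddit3, Asns and Mthfd2 calls held with any 1 library left out, while Phgdh's was lost without YAP KD replicate 3 (0.0503), CTR OE replicate 2 (0.0544), CTR OE replicate 3 (0.0512) or YAP OE replicate 3 (0.0563).

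The 2 sets of controls, scrambled siRNA and control plasmid (GFP by the labels), did not differ detectably in these genes. None of the 10 was called between CTR OE and CTR KD with edgeR and none had an unadjusted p under 0.05, while 1.33% of all genes tested were called. The log2 differences ran from -0.09 (Atf5, 95% interval -0.30 to 0.13) to 0.05 (Phgdh, -0.07 to 0.16). The kind of nucleic acid and the experiment cannot be told apart in this contrast.

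Levels were compared between genes per kilobase of effective length, on a scale common to the 12 libraries. Psat1 (mean 208 CPM per kilobase, libraries 181 to 233) and Asns (196, libraries 170.3 to 233) were highest and overlapped each other, at about the 97th percentile of 12364 detected genes (97.2 and 97.1). Atf4 followed at 147 and Phgdh at 99.6, each separate from its neighbours. Mthfd2 (51.2) and Shmt2 (44.1) overlapped. The stress factors were lower, with Ddit3 at 17.6, Atf5 at 15.2 and Trib3 at 12.3, whose library ranges overlapped in that order, and Chac1 last at 7.34, below every Trib3 library. The ESCs thus expressed the synthetic enzymes and Atf4 itself at high mRNA levels in every group, with group means of 193.9 to 219 for Psat1 and 142 to 153 for Atf4, and the CHOP branch at lower ones.

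The 10 genes also differed between libraries of a group. Their within-group SD of log2 CPM lay between the 11.05th (Atf4) and the 75.75th (Trib3) percentile of the genes tested in both experiments. Their mean log2 CPM relative to the control mean of the same experiment was -0.094, 0.106 and -0.012 in CTR KD replicates 1 to 3 and -0.124, -0.212 and -0.240 in YAP KD. It was 0.009, 0.024 and -0.033 in CTR OE and 0.079, 0.190 and 0.291 in YAP OE. On this mean, all YAP KD libraries were below all CTR KD libraries and all YAP OE libraries above all CTR OE libraries, but the lowest control and the highest knockdown library were only a little apart. The range within a group was 0.2 in CTR KD, 0.117 in YAP KD, 0.0566 in CTR OE and 0.213 in YAP OE. Single libraries carried much of this spread. In CTR KD, replicate 2 was the highest of the 3 for 9 of the 10 genes and replicate 1 the lowest for 9. In YAP KD, replicate 1 was highest for 9. In YAP OE, replicate 3 was highest for 9 and replicate 1 lowest for 8. Such orders were not counted over all genes. The YAP OE library with the lowest mean of the 10 genes had the highest Yap1 (277.9 CPM), and the library with the highest mean had the lowest Yap1 (244.7 CPM).

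The share of counts on small RNA entries moved with these differences. Within CTR KD, YAP KD and YAP OE the libraries had the same order in both measures, and within CTR OE only the highest library was the same. How many of all genes share that order with the small RNA share was not counted. In YAP OE the shares were 10.31, 11.45 and 13.18% in replicates 1 to 3. With the small RNA share as a covariate, an alternative chosen after seeing the data, 3 of the 10 genes passed in the knockdown fit and 5 in the overexpression fit, where Trib3, Asns and Mthfd2 joined Atf5 and Ddit3. Calls over all genes in these fits were 871 and 441, beside 802 and 316 without the covariate. The trophoblast markers Cdx2 and Gata3 were higher in YAP OE than in CTR OE, as was the mean of the 10 genes. The 4 trophoblast markers summed to under 4 CPM. Between YAP OE replicates 1 to 3 these 2 did not follow the order of that mean. Cdx2 was 0.642, 0.643 and 0.608 CPM, and Gata3 0.894, 1.22 and 1.02. Their part in the overexpression effect was not tested.

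**Figure D3:**
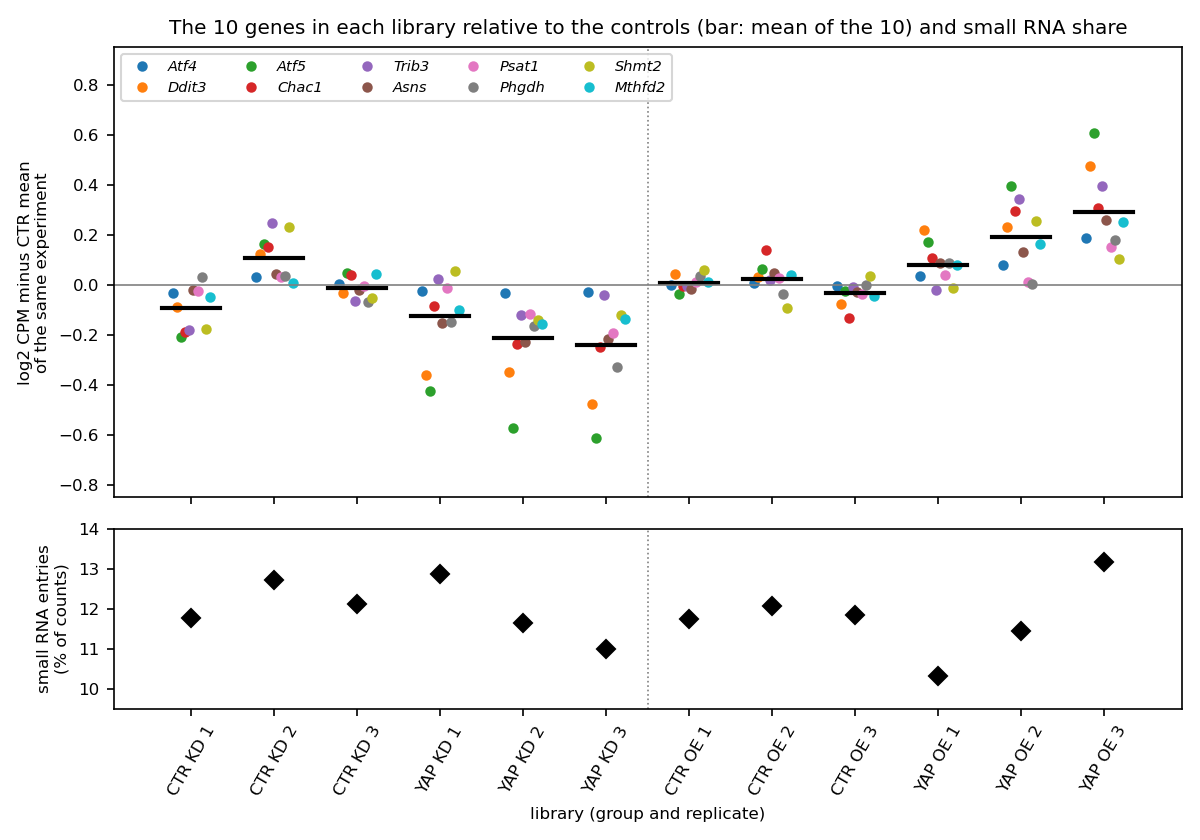
Upper panel: log2 CPM of each of the 10 genes (coloured points) in each library minus the CTR mean of the same experiment, with a black bar for the mean of the 10. Lower panel: percent of each library's counts on small RNA entries. The black bars run from -0.240 in YAP KD replicate 3 to 0.291 in YAP OE replicate 3, and in YAP OE replicate 1 is lowest and replicate 3 highest in both panels.

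Over values centred on each group's mean, the 10 genes varied together. All 45 pairs had a positive Pearson correlation over the 12 libraries, with a median of 0.68 and a range from 0.05 (Chac1 and Phgdh) to 0.88 (Atf5 and Trib3). Atf5 was closest to the mean of the other genes (r = 0.95) and Phgdh farthest from it (r = 0.32), although Phgdh and Psat1, the neighbouring steps of serine synthesis, had 0.75 with each other. These points share their libraries and, with them, depth and RNA composition, so the values are descriptions. The genes outside the 10 whose group-centred pattern was most like their mean were Vasp (0.97), Gars (0.97), Psme2 (0.97), Thap11 (0.97) and Ndufs6 (0.96), of 9904 genes with a mean of at least 5 CPM. Of these, Gars is the glycyl-tRNA synthetase, Vasp an actin regulator, Psme2 a proteasome activator subunit and Ndufs6 a subunit of respiratory complex I. A correlation over 0.5 with that mean was found for 21.3% of the 9904 genes.

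Further genes of the pathway were read from 7 lists. Upstream of ATF4, none of 12 genes for eIF2 kinases, their phosphatase subunits, eIF2 alpha and eIF2B was called in either experiment with edgeR, with 1 unadjusted p under 0.05 in the knockdown and none in the overexpression. The log2 fold changes of this list ran from -0.09 (Eif2ak4, the GCN2 kinase of amino acid shortage) to 0.07 (Ppp1r15b, a phosphatase subunit) in the knockdown, and from -0.08 (Eif2b2) to 0.02 in the overexpression, where Ppp1r15a, also known as GADD34 and an ATF4 target, had -0.05. No difference between the experiments was called in this list with edgeR. Phosphorylation of eIF2 and ATF4 protein were not measured.

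Among 15 tested genes for other stress factors and effectors, 2 rose and 1 fell in the knockdown, and 4 rose in the overexpression. Ddit4 (REDD1, an inhibitor of mTORC1) rose in both, from 14.9 ± 1.24 to 19.3 ± 1.88 CPM in the knockdown (log2 fold change 0.37, SE 0.0833, adjusted p = 0.0317) and from 17.5 ± 1.08 to 23.1 ± 3.98 in the overexpression (log2 fold change 0.40, SE 0.0936, adjusted p = 0.0364). Ero1l, an oxidase of the endoplasmic reticulum, also rose in both (log2 fold change 0.23, adjusted p = 0.0497, and 0.19, adjusted p = 0.0382). For these 2 genes the knockdown and overexpression effects had the same sign, unlike the 10 genes. Jdp2, an AP-1 family repressor, fell in the knockdown (log2 fold change -0.32, SE 0.0698, adjusted p = 0.0290). Atf3, a stress-induced factor, rose in the overexpression from 1.45 ± 0.0133 to 2.22 ± 0.382 CPM (log2 fold change 0.62, SE 0.148, adjusted p = 0.0395), and Stc2, a secreted glycoprotein, from 7.70 ± 0.457 to 10.7 ± 1.44 CPM (log2 fold change 0.48, SE 0.0903, adjusted p = 0.0103). The list had a median of -0.18 with YAP silenced and 0.17 with YAP overexpressed. In the direct test with edgeR, the difference between the experiments was called for 5 of the 15, all above 0. These were Stc2 (0.74, adjusted p = 0.00318), Vldlr (0.59, 0.0218), Jdp2 (0.53, 0.0297), Nupr1 (0.41, 0.0406) and Cebpg (0.24, 0.0220). Fgf21 was too low to be tested.

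Of 10 amino acid transporter genes, 3 fell in the knockdown and none was called in the overexpression with edgeR, where 2 had an unadjusted p under 0.05. Slc7a1, the cationic transporter of arginine and lysine, had 48.2 ± 4.24 CPM in CTR KD and 36.4 ± 1.52 in YAP KD (log2 fold change -0.40, SE 0.0652, adjusted p = 0.00766). Slc1a4, a carrier of alanine, serine and cysteine, fell by 0.24 on the log2 scale (adjusted p = 0.0217), and Slc38a1, a glutamine carrier, fell by 0.18 (adjusted p = 0.0277). In the overexpression Slc1a4 had 0.20 (adjusted p = 0.0624) and Slc7a1 0.15 (adjusted p = 0.127), and the difference between the experiments was called for both (0.44, adjusted p = 0.00172, and 0.56, adjusted p = 7.19e-04). Slc7a11, the cystine carrier that ATF4 is known to induce, had -0.03 and 0.08.

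Among 20 further enzymes of amino acid and one-carbon metabolism, 2 fell in the knockdown and 1 rose in the overexpression. Cth, cystathionine gamma-lyase, which makes cysteine, had the largest effect of any gene on the 7 lists in the knockdown. Its CPM was 97.01 ± 3.90 in CTR KD and 60.9 ± 2.63 in YAP KD (log2 fold change -0.67, SE 0.0484, adjusted p = 1.22e-04), and 93.6 ± 4.75 in CTR OE and 119 ± 8.63 in YAP OE (log2 fold change 0.35, SE 0.0519, adjusted p = 0.00184), without overlap in either. Gpt2, the mitochondrial alanine transaminase, fell in the knockdown (log2 fold change -0.33, SE 0.0468, adjusted p = 0.00460) and had 0.15 in the overexpression (adjusted p = 0.177). Pck2, mitochondrial PEP carboxykinase, had 0.22 in the overexpression (adjusted p = 0.0614). Psph, which completes serine synthesis after Phgdh and Psat1, had -0.09 and 0.07 and was not called. Shmt1, the cytosolic counterpart of Shmt2, had 0.10 and -0.10, signs opposite to those of Shmt2, and was not called in either experiment. Its groups did not overlap in either, and the difference between the experiments was called with edgeR (-0.20, adjusted p = 0.0317). That was the only called difference below 0 among the 20 enzymes, while 5 were called above 0. These 5 were Cth (1.02, adjusted p = 1.11e-06), Gpt2 (0.48, 8.39e-04), Aldh1l1 (0.46, 0.00678), Pck2 (0.44, 0.0245) and Pycr1 (0.33, 0.0354). Over all genes tested, 5.24% were called above 0 and 3.56% below 0.

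The medians of the remaining lists moved little. None of 21 genes for cytosolic aminoacyl-tRNA synthetases and the tRNA exporter Xpot was called in either experiment with edgeR, with 2 and 1 unadjusted p under 0.05 in the knockdown and the overexpression. The widest log2 fold changes were Cars (-0.14) and Nars (-0.10) in the knockdown and Gars (0.11) and Nars (0.09) in the overexpression. Of the 21, only Cars had a called difference between the experiments with edgeR (0.19, adjusted p = 0.0399). Of 15 endoplasmic reticulum chaperones and unfolded protein response genes, Atf6, the sensor of one branch of that response, fell in the knockdown (log2 fold change -0.27, SE 0.0426, adjusted p = 0.00728) and the others were not called. The chaperone Hspa5 (BiP) had -0.02 in both experiments, and Dnajc3 had -0.19 in the knockdown (adjusted p = 0.0538). In the overexpression, none of the 15 was called with edgeR, with 1 unadjusted p under 0.05, and the widest log2 fold changes were Ern1 (0.15) and Atf6 (0.12). Called differences between the experiments were those of Atf6 (0.39, adjusted p = 3.14e-04) and Dnajc3 (0.27, adjusted p = 0.0162), and no difference was called in the mitochondrial list. None of 5 mitochondrial chaperones and proteases was called with edgeR, with 2 unadjusted p under 0.05 in the knockdown and none in the overexpression, and the widest were Hspd1 (0.13) and Hspe1 (0.10) in the knockdown and Clpp (-0.08) and Hspa9 (0.06) in the overexpression.

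**Figure D4:**
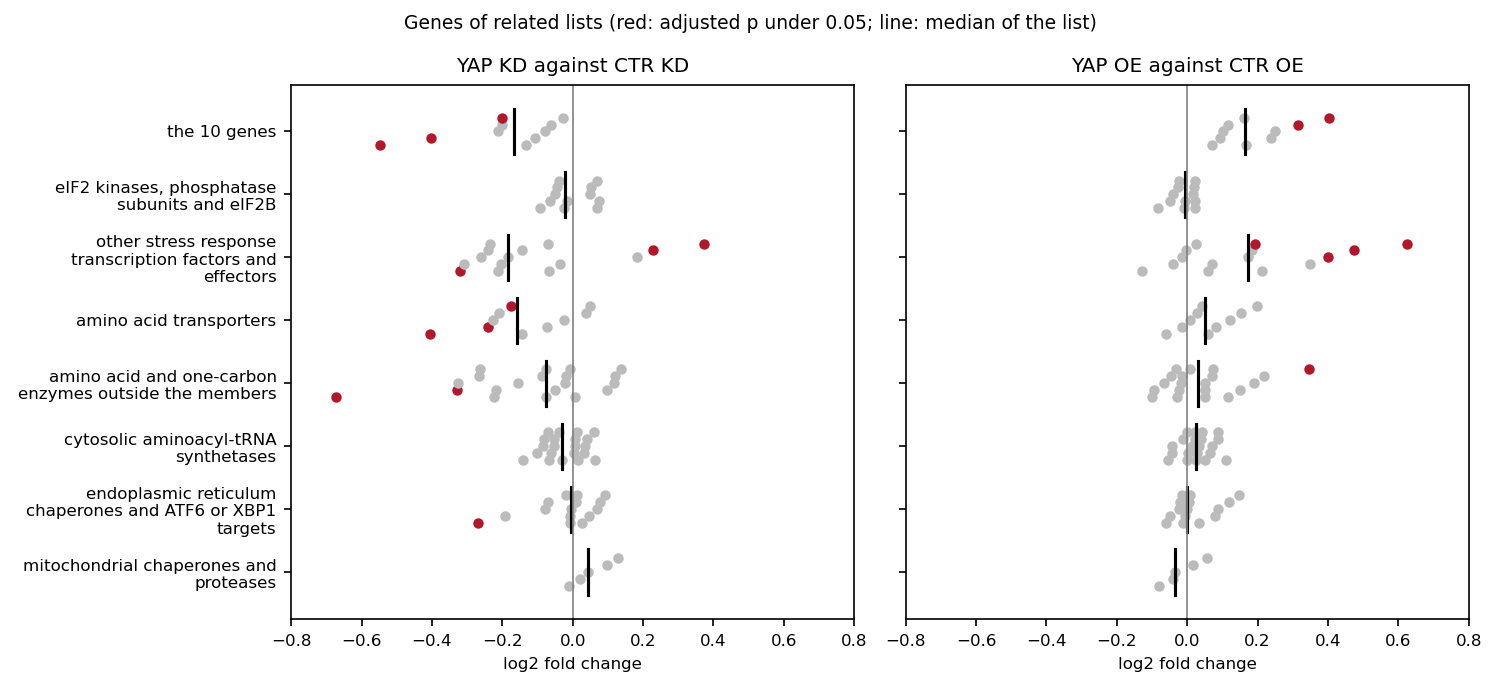
Log2 fold change (horizontal axes) of YAP KD against CTR KD (left) and YAP OE against CTR OE (right) for each tested gene of the 10 and of the 7 lists, with red points for an adjusted p under 0.05 and a black line for each list's median. The median of the 10 genes is -0.17 on the left and 0.16 on the right, and that of the synthetases -0.03 and 0.03.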

How the data were processed

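RNA was extracted with TriSure and sequenced on an Illumina Genome Analyzer. The authors aligned reads with STAR to mm10 and quantified genes with RSEM on curated RefSeq, as also listed in the submitters' processing notes; versions, strand use and quality filters are not given in the sources used here. The deposited expected counts (RSEM estimates that need not be whole) were rounded to whole numbers and tested with edgeR 4.0.16 (R 4.3.3), using filterByExpr, TMM factors, quasi-likelihood F tests (two-sided) and Benjamini-Hochberg adjustment over all genes tested, with 6 libraries per experiment and all 12 for contrasts across experiments. A gene was called at an adjusted p under 0.05, and an SE is the log2 fold change divided by the square root of F. Percentages of the control come from the fitted log2 fold change. The TPM deposited by the authors served only for an alternative with limma 3.58.1 on log2(TPM + 1). The FPKM deposited by the authors took no part in the tests. Transcript lengths served for a description, a length scale and an alternative fit with the length trend removed. DESeq2 1.42.0 and other scalings and filters were tried as well.

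The 10 genes and the lists were chosen with earlier results of these data known. The genes named were the 10, Yap1, and from each list those called in either experiment and the 2 with the largest absolute log2 fold change in each; values of some further list genes are given as background to their roles, chosen after their values were seen. Each of the 10 genes had at least 378 counts in every library. The 3 libraries of a group are described as independent samples, and p-values measure the spread between them. No library was a copy of another of its group (chi-square per degree of freedom of 3.54 to 25.7 between them). The main fits took no pairing. Same-numbered deviations correlated at -0.492, -0.391 and 0.068 in the knockdown, and at 0.048, 0.102 and -0.040 in the overexpression. With 3 libraries per group, whose deviations sum to 0, such values cannot settle whether the numbers pair the samples. The paper names paired samples for its t tests and gives no pairing for the sequenced libraries. The fitting steps were tested on simulated data.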

Additional observations from a re-analysis of the deposited data

Results flagged for a closer look

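The effect of YAP differed between overexpression and knockdown, by the direct test of the difference in edgeR, for 5 of the 10 genes. The difference, overexpression minus knockdown on the log2 scale, was 0.95 for Atf5 (adjusted p = 6.66e-04), 0.72 for Ddit3 (adjusted p = 7.30e-04), 0.36 for Asns (adjusted p = 0.00259), 0.31 for Phgdh (adjusted p = 0.0206) and 0.30 for Mthfd2 (adjusted p = 0.00788). Since one treatment lowers and the other raises YAP, opposite signs give such a difference. Samples were 3 per group, so no search for a single outlying sample was made within a group.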

How the results depend on the processing

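All 10 point estimates kept their sign in both experiments under every scaling, filter and tool tried. The exceptions came from leaving out CTR KD replicate 2, where Trib3 (0.0752, and -0.155 to 0.0752 with any 1 library left out) and Shmt2 (0.0469, and -0.169 to 0.0469) turned positive in the knockdown. Of 560 values of single genes under alternatives, 512 kept direction and side of the threshold, 22 passed it newly, 24 lost it and 2 reversed. In the knockdown the 3 calls among the 10 genes became 5 with the GC trend removed, an alternative added after seeing the data, and 0 with the replicate block, and leaving out 1 library gave 0 to 3. All genes called went from 802 to 1261 in 1 fit over 12 libraries, 1347 with the GC trend removed and 193 with the replicate block, under which the adjusted p was 0.0587 for Ddit3, 0.0648 for Atf5 and 0.130 for Asns, and to 298 to 1019 with 1 library left out. In the overexpression the 2 calls became 4 with no filter, 0 on log2(TPM + 1) values, 0 in the fit over 12 libraries, 1 with the replicate block and 5 with the small RNA share as a covariate, also added later, and 0 to 4 with 1 library left out. All genes called there went from 316 to 556 with no filter, 148 on log2(TPM + 1) values, 252 in the fit over 12 libraries, 280 with the replicate block (Ddit3 adjusted p = 0.0593) and 441 with the small RNA share as a covariate, and to 154 to 327 with 1 library left out. The cause of these shifts was not tested, except that leaving out a library leaves fewer samples. The replicate block gave 5 calls of the difference between experiments, as without it. Whether the numbers pair the samples could not be settled. In the knockdown, CTR KD replicate 1 correlated best with YAP KD replicate 2 (0.366) and CTR KD replicate 2 with YAP KD replicate 1 (0.529). The number of calls between the 2 controls was 0 in every alternative run.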
